A study of Mus musculus with 6 samples.

Results

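The 9 genes described here encode the enzymes and regulators of hepatic glucose output and the receptor-proximal part of insulin signalling. They were chosen by name from a table of 24318 rows, and each of Pck1, G6pc, Fbp1, Pcx, Ppargc1a, Foxo1, Insr, Irs1 and Irs2 matched 1 row. The values came from RNA sequencing of whole liver of C57BL/6 mice. All mice carried loxP-flanked alleles of Map3k7, the gene of the kinase TAK1, and VEcadCreERT2, a tamoxifen-inducible Cre recombinase under the endothelial VE-cadherin promoter. The 3 control libraries are of liver from untreated mice, and the 3 knockout libraries of liver from mice given tamoxifen, so that the deletion and the drug cannot be told apart. The labels state neither age, feeding state nor time after tamoxifen, and they call the libraries triplicates without naming separate animals, so the p-values rest on the spread among these libraries, which may be technical. The descriptions of knockouts 1 and 3 carry a suffix that the labels do not explain and that of knockout 2 does not, and whether it marks a separate preparation or run is unknown. In whole liver, fewer cells of a type and less RNA per cell cannot be told apart.

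Gluconeogenesis makes glucose from lactate, alanine and glycerol, and in fasting it is chiefly a task of hepatocytes. Pyruvate carboxylase (Pcx) turns pyruvate into oxaloacetate, cytosolic phosphoenolpyruvate carboxykinase (Pck1) makes phosphoenolpyruvate from it, fructose-1,6-bisphosphatase (Fbp1) acts further along, and the catalytic subunit of glucose-6-phosphatase (G6pc) releases free glucose. Insulin binds its receptor (Insr), which phosphorylates the substrates IRS1 and IRS2. These recruit PI3-kinase and thereby activate AKT, which keeps the transcription factor FOXO1 out of the nucleus, and active FOXO1 promotes transcription of G6pc, Pck1, Igfbp1 and Irs2. PGC-1alpha (Ppargc1a) is a coactivator of FOXO1 and HNF4A in fasting. The RNA level of such a factor does not measure its activity.

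Levels are in FPKM, which divides the fragments of a gene by its transcript length and by a measure of the size of the library. FPKM can be compared between genes unless an estimate failed, as may hold for Alb, listed at 0 in all controls. Log2 fold changes are of FPKM + 0.5 in knockout against control, a scale that understates changes of low genes, and are given ± their standard error. Each gene was tested by limma with p-values adjusted by the Benjamini-Hochberg method over all 11842 genes that averaged 0.5 FPKM or more, and a gene was called at an adjusted p under 0.05. All 9 genes passed that filter. Of the 9, 3 were called higher (Pcx, Foxo1 and Irs2) and 3 lower (Pck1, G6pc and Irs1), against a background of 14.1% of tested genes called higher, 13% called lower and 27% called in either direction. Their median log2 fold change was -0.17, and that of all genes tested was -0.00. The same 6 genes had control and knockout libraries that did not overlap, which held for 43.5% of all genes tested (22.4% higher and 21.1% lower in knockout).

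Map3k7 itself measured 8.498, 9.02 and 9.14 FPKM in controls against 9.28, 9.31 and 7.35 FPKM in knockouts (limma adjusted p = 0.868), and endothelial cells are not the only liver cells that express it, so it does not check the deletion. Steps between low values gave relative depths of 0.921 to 1.085 against control 1, and absolute depth is unknown. The 21 hepatocyte markers other than Alb that were in the table were all tested, of which 2 were called higher and 10 lower, and their summed level was 40294 to 52606 FPKM in controls against 32885 to 35415 FPKM in knockouts. Alb was listed at 0 in all controls and at 59068, 73306 and 55705 FPKM in knockouts. It was left out of the fit, of this sum and of the rescaling to equal totals described below. Summed endothelial markers (16 genes, 11 called lower and 0 higher) ranged from 176.4 to 264.1 FPKM in controls against from 72.7 to 85.8 FPKM in knockouts. Clec4g alone measured 44.4, 63.8 and 56.5 FPKM in controls against 0.381, 0 and 0 FPKM in knockouts. The endothelial markers Pecam1, Cdh5, Emcn, Stab2 and Eng were not called. Neutrophil markers (13 genes, 13 called higher) summed to 216.8 to 416.2 and to 5237 to 6790 FPKM, and monocyte and macrophage markers (17 genes, 14 called higher) to 562 to 1229 and to 1689 to 1841 FPKM. Most of the neutrophil sums was Lcn2, at 179.5, 200.8 and 339.8 FPKM in controls and 3697, 3478 and 5047 FPKM in knockouts. Markers of T, NK and B cells (14 genes, 12 tested and 5 called higher) summed to 6.70 to 12.0 and to 26.7 to 42.9 FPKM, those of stellate cells and fibroblasts (12 genes, 8 called higher) to 210.8 to 269.1 and to 402.5 to 519.8 FPKM, and those of cholangiocytes (8 genes, 6 tested, 1 called higher and 1 lower) to 36.6 to 49.7 and to 44.0 to 55.4 FPKM. Of 10 pancreatic and adipose markers, Ins1, Ins2, Gcg, Prss1, Cpa1, Adipoq and Lep were listed at 0 in every library, and the list summed to 15.3 to 26.2 FPKM in controls and to 5.19 to 8.51 FPKM in knockouts. Its 1 tested member, the elastase Cela1, measured 20.7, 25.3 and 15.0 FPKM in controls against 8.25, 7.23 and 4.90 FPKM in knockouts and was called lower (log2 fold change -1.51 ± 0.24, limma adjusted p = 0.00206). The part of these differences in the results below was not tested.

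Sequence upstream of the start is shown for Pck1 and G6pc, which both fell, and for Irs1 and Irs2, which moved in opposite directions. The windows searched are the 250 bases before the RefSeq start, and RefSeq and GENCODE, from which the gene positions below are taken, place the starts differently. The RefSeq start lies 25 bases downstream of the GENCODE start for Pck1 and 155 bases downstream for G6pc, and 23 and 471 bases upstream of it for Irs1 and Irs2. Shown are the bases of each window that lie outside the gene in both annotations. They are RefSeq sequence of GRCm38.p6, a later build than the mm9 of the authors' processing, read 5′ to 3′ on the strand of the gene. They cover chr2:173152823-173153047 (plus strand) for Pck1, chr11:101367466-101367560 (plus strand) for G6pc, chr1:82291440-82291689 (minus strand) for Irs1 and chr8:11008930-11009179 (minus strand) for Irs2. Capitals mark the core of the insulin response sequence, CAAAACA or its reverse complement TGTTTTG, and the core of the cAMP response element, TGACG or CGTCA.
Pck1: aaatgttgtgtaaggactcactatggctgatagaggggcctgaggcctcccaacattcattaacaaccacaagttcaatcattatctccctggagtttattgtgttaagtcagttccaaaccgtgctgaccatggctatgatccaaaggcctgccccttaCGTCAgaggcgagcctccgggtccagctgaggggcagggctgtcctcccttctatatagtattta
G6pc: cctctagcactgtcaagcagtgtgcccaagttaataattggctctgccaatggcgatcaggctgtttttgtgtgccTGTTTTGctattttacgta
Irs1: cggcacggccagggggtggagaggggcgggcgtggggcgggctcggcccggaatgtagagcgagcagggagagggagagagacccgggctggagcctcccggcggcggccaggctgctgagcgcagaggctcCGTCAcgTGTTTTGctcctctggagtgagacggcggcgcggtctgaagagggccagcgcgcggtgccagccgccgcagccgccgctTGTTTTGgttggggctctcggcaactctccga
Irs2: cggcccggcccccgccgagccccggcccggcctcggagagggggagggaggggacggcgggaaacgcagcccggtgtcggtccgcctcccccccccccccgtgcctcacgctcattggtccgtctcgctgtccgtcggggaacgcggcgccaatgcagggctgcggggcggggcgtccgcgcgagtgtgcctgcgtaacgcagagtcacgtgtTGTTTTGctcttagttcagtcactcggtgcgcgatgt
Counted back from the RefSeq start, the letters TGTTTTG stand 174 to 168 bases before the start of G6pc, 111 to 105 and 32 to 26 bases before that of Irs1, and 37 to 31 bases before that of Irs2. The letters CGTCA stand 90 to 86 bases before the start of Pck1 and 118 to 114 before that of Irs1. They also stand 49 to 45 bases before that of Ppargc1a. The TATA box TATAAA stands 29 to 24 bases before the RefSeq start of G6pc, inside the gene as GENCODE draws it and hence not shown. The table of upstream sequences held 8 of the 9 genes (Insr was not among them), and CAAAACA on either strand was in 3 of the 8 and in 5.56% of all 32851 windows of the same length. TGACG on either strand was in 3 of the 8 genes and in 17.8% of windows, and TATAAA or TTTATA in 1 gene and in 12.4%. The FOXO core GTAAACA or TGTTTAC and the complete cAMP response element TGACGTCA, which contains TGACG, were in none of the 8 and in 3.17% and 1.55% of windows. Genes that rose, fell and were not called thus share letters, and a match is a description of the sequence only.

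Of the enzymes, G6pc and Pck1 fell and Pcx, which feeds the pathway from pyruvate, rose. Fbp1, which acts between Pck1 and G6pc, was not called. G6pc (chr11:101367561-101377903, plus strand, in GRCm38) measured 129.3, 94.999 and 109.6 FPKM in controls against 12.1, 24.5 and 37.7 FPKM in knockouts. The highest knockout library was well below the lowest control, and the knockout libraries differed among themselves by 3.12 times from lowest to highest. The mean went from 111.3 ± 17.2 to 24.7 ± 12.8 FPKM (SD, n = 3 each), 0.222 times the control level, with a log2 fold change of -2.28 ± 0.34 (limma adjusted p = 0.00155). Of all tested genes, 98.0% changed by this much or less in either direction.

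Pck1 (chr2:173153048-173159273, plus strand) measured 1445, 1180 and 1238 FPKM in controls against 632, 446 and 866 FPKM in knockouts. It was the most abundant of the 9 genes in each control library, and every knockout library was lower than every control. The mean went from 1288 ± 139 to 648 ± 210 FPKM (SD, n = 3), 0.503 times the control level, with a log2 fold change of -1.04 ± 0.23 (limma adjusted p = 0.0101). The libraries with the least RNA of the 2 enzymes were not the same, knockout 1 for G6pc and knockout 2 for Pck1.

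Within a library the ratio of Pck1 to G6pc does not depend on how that library was scaled. It was 11.2, 12.4 and 11.3 in control and 52.4, 18.2 and 23.0 in knockout libraries, so that G6pc was lower relative to Pck1 in every knockout. On the log2 scale of FPKM + 0.5 the ratio was 3.53 ± 0.08 in control and 4.77 ± 0.78 in knockout libraries (SD, n = 3), a difference of 1.24 (0.80 without knockout 1). The exact two-sided permutation p was 0.1, the smallest that 3 against 3 libraries can give.

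Pcx (chr19:4510472-4621752, plus strand) measured 94.6, 92.8 and 120.4 FPKM in controls against 141.1, 181.2 and 175.0 FPKM in knockouts. The groups did not overlap, with control 3 nearest to the knockout libraries. The mean rose from 102.6 ± 15.4 to 165.8 ± 21.6 FPKM (SD, n = 3), 1.62 times, with a log2 fold change of 0.69 ± 0.16 (limma adjusted p = 0.0114). Without control 2 the log2 fold change was 0.62 and the call was lost (adjusted p = 0.0563, 0.00262 to 0.0563 across the settings tried).

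Fbp1 (chr13:62864753-62888282, minus strand) measured 962.6, 776.3 and 690.8 FPKM in controls against 698.1, 773.1 and 833.1 FPKM in knockouts. The groups overlapped throughout. Its log2 fold change was -0.07 ± 0.17, with a 95% interval of -0.44 to 0.31 (limma adjusted p = 0.803), and its sign was not stable when a library was left out. Fbp1 was the most abundant of the 9 genes in knockout libraries on average, at 768.1 ± 67.6 FPKM (SD, n = 3), a rank that Pck1 held in control libraries.

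**Figure D1:**
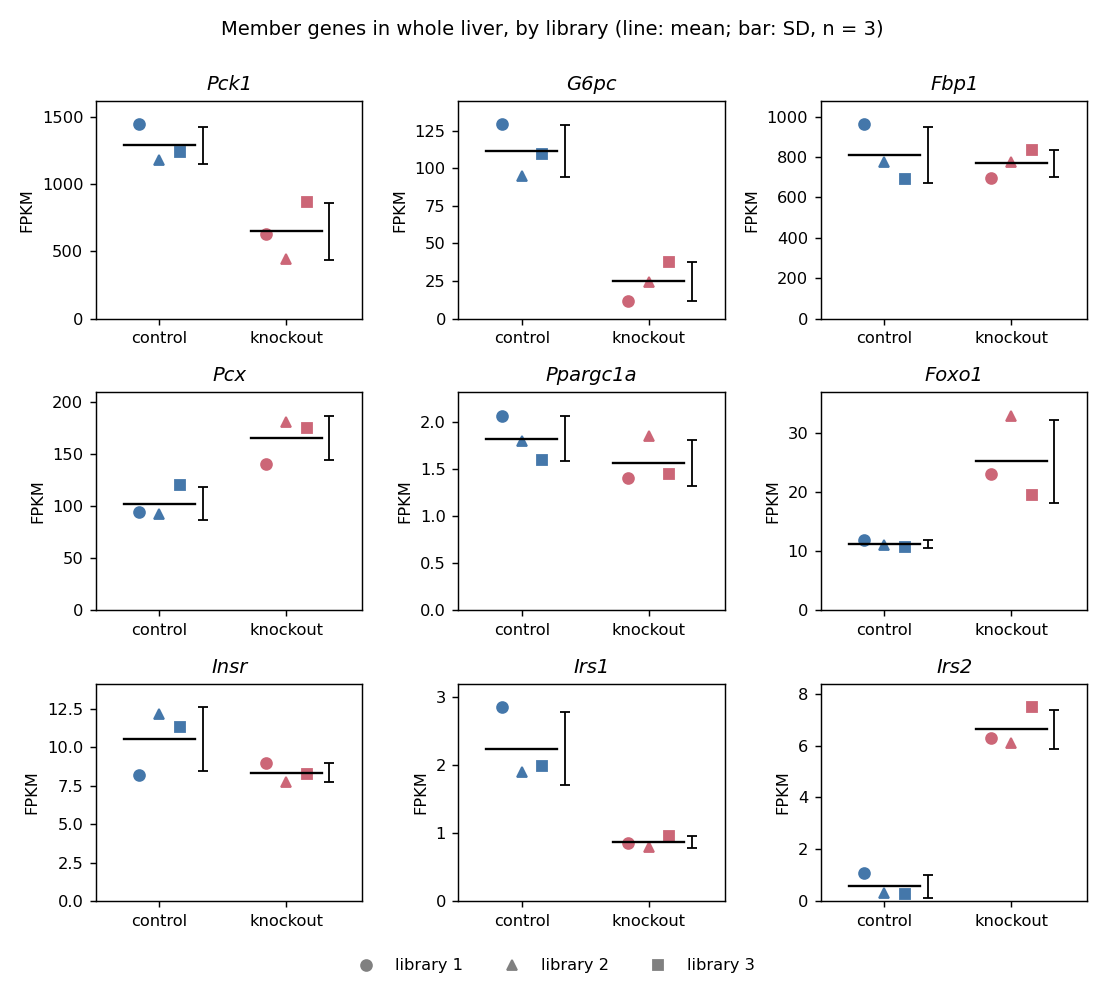
FPKM (vertical axes, from 0) of the 9 genes in 3 control (blue) and 3 knockout (red) libraries; symbols mark the library number within a group, which pairs nothing, lines the mean and bars the SD. Control and knockout libraries do not overlap for Pck1, G6pc, Pcx, Foxo1, Irs1 and Irs2, and overlap for Fbp1, Ppargc1a and Insr.

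Of the transcriptional regulators, Foxo1 rose and Ppargc1a was not called. Foxo1 (chr3:52268336-52353221, plus strand) measured 11.9, 11.1 and 10.7 FPKM in controls against 23.2, 33.0 and 19.5 FPKM in knockouts. The controls lay close together, with a coefficient of variation of 5.52%, while knockout 2 stood above the other knockouts. The mean rose from 11.2 ± 0.619 to 25.2 ± 7.0 FPKM (SD, n = 3), 2.25 times, with a log2 fold change of 1.10 ± 0.20 (limma adjusted p = 0.00354).

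Ppargc1a (chr5:51454250-51567726, minus strand) measured 2.07, 1.80 and 1.6 FPKM in controls against 1.40, 1.85 and 1.45 FPKM in knockouts. Knockout 2 lay within the range of the controls. The log2 fold change was -0.17 ± 0.23, with a 95% interval of -0.70 to 0.36 (limma adjusted p = 0.634), and the level was low, in the lowest 19.2% of tested genes.

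The substrates of the insulin receptor moved in opposite directions and the receptor itself was not called. Irs2 (chr8:10984681-11008458, minus strand) measured 1.09, 0.341 and 0.303 FPKM in controls against 6.29, 6.08 and 7.49 FPKM in knockouts. The lowest knockout library was far above the highest control, and control 1 stood above the other controls by more than 3 times. The mean rose from 0.580 ± 0.447 (0.322 without control 1) to 6.62 ± 0.760 FPKM (SD, n = 3), with a log2 fold change of 2.79 ± 0.30 (limma adjusted p = 3.16e-04). The ratio of the mean levels was 11.4, and 20.6 without control 1. The log2 fold change was 3.49 with a pseudocount of 0.1 and 2.30 with a pseudocount of 1, and 99.1% of tested genes changed by as much as Irs2 or less.

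Irs1 (chr1:82233101-82291416, minus strand) measured 2.85, 1.89 and 1.98 FPKM in controls against 0.849, 0.798 and 0.964 FPKM in knockouts. Each knockout library was below each control, and control 1 was the highest control for Irs1 as it was for Irs2. The mean went from 2.24 ± 0.531 to 0.870 ± 0.0848 FPKM (SD, n = 3), 0.388 times the control level, with a log2 fold change of -0.98 ± 0.25 (limma adjusted p = 0.0183). Without control 1 the log2 fold change was -0.83 and the call was lost (adjusted p = 0.0846, 0.00849 to 0.0846 across the settings tried).

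The ratio of Irs2 to Irs1 was 0.384, 0.180 and 0.153 in control and 7.40, 7.61 and 7.77 in knockout libraries. Irs1 was thus the more abundant substrate in all 3 controls and Irs2 in all 3 knockouts. The log2 ratio of FPKM + 0.5 was -1.40 ± 0.29 in control and 2.37 ± 0.06 in knockout libraries (SD, n = 3), a difference of 3.78, with the exact two-sided permutation p at its smallest possible value of 0.1. The difference was 3.66 to 3.94 when any 1 library was left out. It depended more on the value added, at 4.74 with a pseudocount of 0.1 and 3.08 with a pseudocount of 1.

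**Figure D2:**
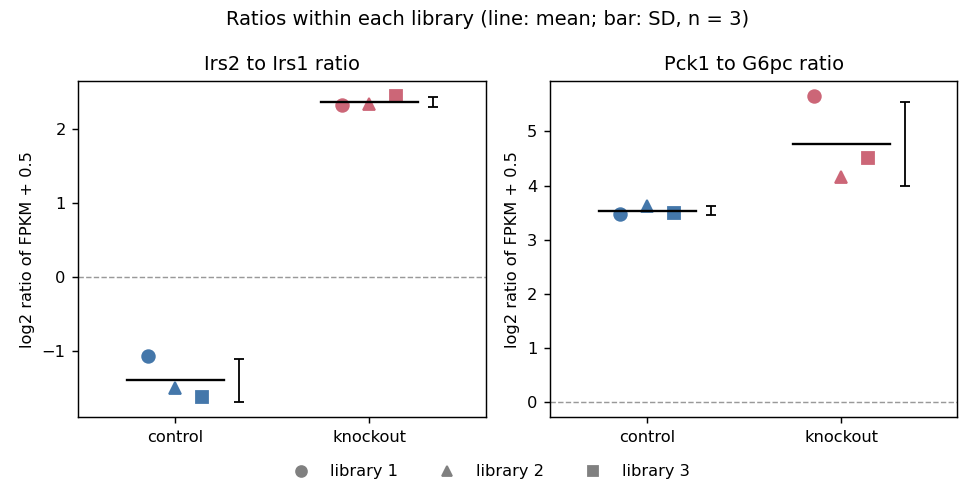
Log2 ratio of FPKM + 0.5 within each library (vertical axes) for Irs2 over Irs1 and Pck1 over G6pc in control (blue) and knockout (red) libraries, with means (lines) and SD (bars); the dashed line is equal levels. The Irs2 to Irs1 ratio lies below the dashed line in all controls and above it in all knockouts, and the knockout libraries lie close together for that ratio and apart for Pck1 to G6pc.

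Insr (chr8:3122061-3279617, minus strand) measured 8.19, 12.2 and 11.3 FPKM in controls against 9.01, 7.77 and 8.30 FPKM in knockouts. Control 1 lay among the knockouts. The log2 fold change was -0.30 ± 0.19, with a 95% interval of -0.72 to 0.12 (limma adjusted p = 0.266).

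In order of level, control libraries had Pck1 above Fbp1, then G6pc and Pcx, whose ranges overlapped, then Foxo1 and Insr, which overlapped, then Irs1 and Ppargc1a, which overlapped, and Irs2 lowest. In knockout libraries Fbp1 and Pck1 overlapped at the top, Pcx came next, Foxo1 and G6pc overlapped at means of 25.2 and 24.7 FPKM, and Insr, Irs2, Ppargc1a and Irs1 followed with ranges that did not overlap. G6pc, which matched Pcx in control libraries, was at the level of Foxo1 in knockout libraries, and Irs2 went from below Ppargc1a to above it.

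**Figure D3:**
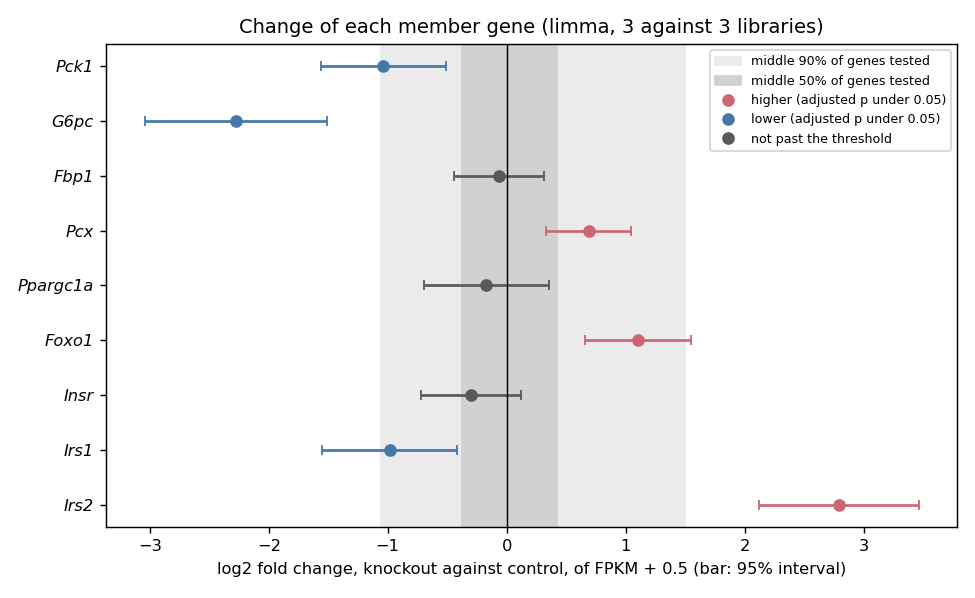
Log2 fold change of FPKM + 0.5 in knockout against control (horizontal axis) with its 95% interval (bars) for each of the 9 genes, over bands that hold the middle 50% (-0.38 to 0.42) and middle 90% (-1.06 to 1.5) of all genes tested. G6pc and Irs2 lie outside the wider band, and the intervals of Fbp1, Ppargc1a and Insr include 0.

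The genes whose profile over the 6 libraries was nearest to each of the 9 were taken from 6437 other genes averaging 5 FPKM or more, by the root mean square difference of centred log2 values. Nearest to Irs2 were the granulocyte colony-stimulating factor receptor Csf3r (0.254) and the leukocyte tetraspanin Cd37 (0.258). Those nearest to G6pc were Fitm1 (0.316) and the glucuronosyltransferase Ugt1a5 (0.34), which shares exons and hence reads with the other Ugt1a genes. Pck1 was nearest to the mevalonate pathway enzyme Mvd (0.080) and Cys1 (0.086), Irs1 to Acot13 (0.071) and Ppa2 (0.078), Pcx to Dbnl (0.049) and glutathione reductase Gsr (0.060), and Foxo1 to the transcription factor Ets2 (0.118) and Dnase2b (0.124). For the genes not called, they were Ltbr and Irf3 (Fbp1), Azgp1 and Wbscr16 (Ppargc1a), and Nolc1 and Mtmr14 (Insr). With 6 libraries in 2 groups, nearness mostly reflects the size of the group difference.

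The wider pathway was read from 9 lists with 206 further genes, of which 197 were tested, 36 were called higher and 34 lower, with a median log2 fold change of -0.00. Lists are described by counts and medians, beside the background of 14.1% higher and 13% lower.

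Among 14 tested enzymes shared by gluconeogenesis and glycolysis or otherwise on the route, 6 rose and 3 fell, with a median log2 fold change of 0.41. Aldolase A (Aldoa), the form of muscle and most tissues, rose from 52.6 ± 7.67 to 260.3 ± 47.5 FPKM (limma adjusted p = 7.07e-05). Glucose phosphate isomerase (Gpi1, log2 fold change 1.80 ± 0.19), phosphoglycerate kinase (Pgk1, 1.03 ± 0.19) and triosephosphate isomerase (Tpi1, 0.78 ± 0.17) also rose. The genes that rose include enzymes that run in both directions, and Gapdh, at 0 in all libraries but knockout 1 (0.324 FPKM), was not tested, which for a gene used by every cell can be a failed estimate. Eno1, at or near 0 in all libraries but knockout 3 (3.68 FPKM), was tested and not called (log2 fold change 1.02). The median of 0.41 depends on it, since without Eno1 the middle gene of the list is G6pc3, at 0.03.

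Of 15 genes that bring substrates into the pathway, 8 were called lower (5 with quantile normalization) and 2 higher (1 without control 1 or without control 2), with a median log2 fold change of -0.43. Serine dehydratase (Sds), which makes pyruvate from serine, measured 294.6, 297.3 and 235.9 FPKM in controls against 79.2, 105.3 and 72.4 FPKM in knockouts (log2 fold change -1.69 ± 0.17, limma adjusted p = 2.59e-04). The glutamine transporter Slc38a3 fell from 578 ± 86.4 to 227 ± 11.2 FPKM (adjusted p = 3.86e-04). Lactate dehydrogenase A (Ldha) rose from 299.2 ± 18.0 to 877 ± 72.9 FPKM (adjusted p = 1.43e-04), as did the lactate transporter Slc16a1, named because only 2 genes rose. Tyrosine aminotransferase (Tat), a fasting and glucocorticoid target, measured 1150 ± 95.3 and 903 ± 84.5 FPKM and was not called (adjusted p = 0.116), but was after rescaling to equal totals (log2 fold change -0.47, adjusted p = 0.0437).

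Of 23 genes of glucose uptake, glycolytic entry and glycogen, 7 rose and 4 fell (2 without control 2), with a median log2 fold change of 0.29. Liver phosphofructokinase (Pfkl) rose from 10.7 ± 2.52 to 58.8 ± 3.94 FPKM (limma adjusted p = 5.29e-05), glycogenin (Gyg) from 2.57 ± 1.52 to 11.4 ± 1.10 FPKM (adjusted p = 0.00397) and hexokinase 2 (Hk2), which is low in normal hepatocytes, from 0.637 ± 0.314 to 4.13 ± 0.494 FPKM (adjusted p = 8.53e-04). The 4 that fell were the glycogen synthase Gys2, the pyruvate kinase Pklr, the glycogen-targeting subunit Ppp1r3b and the glucose transporter Slc2a2. Hexokinase 3 (Hk3), a hexokinase of leukocytes, was among those that rose, and was named after its value was seen.

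In the list of glucagon, cAMP and glucocorticoid input, 4 of 19 rose (2 without control 2) and 1 fell, with a median log2 fold change of 0.26. The glucagon receptor Gcgr was the gene that fell, from 65.1 ± 8.62 to 27.2 ± 5.13 FPKM (log2 fold change -1.26 ± 0.18, limma adjusted p = 0.00113), with every knockout library below every control. The cAMP-induced kinase Sik1 rose from 2.52 ± 0.544 to 5.61 ± 0.785 FPKM (adjusted p = 0.00824). The other genes called higher were the glucocorticoid receptor Nr3c1 and the phosphodiesterases Pde3b and Pde4b, and the log2 fold change of Pde4b, 0.95, was 0.73 to 1.14 when a library was left out, with its call lost without control 1, control 2, knockout 1 or knockout 3.

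Of 32 tested regulators of gluconeogenic transcription other than Foxo1 and Ppargc1a, 3 rose and 5 fell (2 without control 1 or without control 2), with a median of -0.12. The orphan receptor Nr4a1 rose from 0.536 ± 0.157 to 4.77 ± 0.588 FPKM (limma adjusted p = 2.55e-04) and Foxa3 from 17.7 ± 5.39 to 42.7 ± 8.66 FPKM (adjusted p = 0.00364). Atf3, a stress-induced repressor, measured 0.6997, 0.969 and 0 FPKM in controls against 3.58, 9.97 and 3.04 FPKM in knockouts. Those that fell were Klf15, Creb3l3, Esrra, Kat2b and Hnf4a, and for Hnf4a the log2 fold change of -0.43 (-0.48 to -0.35 when a library was left out) was no longer called without any 1 of the 6 libraries. With all libraries kept, it was -0.08 with quantile normalization (limma adjusted p = 0.698), and the call was also lost without a mean-variance trend or with a replicate block. Cebpa measured 129.3 ± 5.85 and 125.7 ± 11.2 FPKM and was not called (adjusted p = 0.831).

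Downstream of the substrates, 3 of 34 insulin signalling genes rose (1 without control 1, control 2 or knockout 3) and 1 fell (0 without control 1, control 2, knockout 1 or knockout 2), with a median log2 fold change of 0.01. Pik3cd, the leukocyte catalytic subunit of PI3-kinase, rose from 2.28 ± 0.601 to 8.34 ± 1.24 FPKM (limma adjusted p = 8.31e-04). Grb2 and Mapk3 were the other genes called higher and Hras the gene called lower, and Mapk3 (log2 fold change 0.59, and 0.43 to 0.70 with a library left out) and Hras (-0.55, and -0.67 to -0.44) each lost their call without control 1, control 2 or knockout 1. Mapk3 also lost it without control 3 or knockout 3, and Hras without knockout 2. With all libraries kept, both lost it without a mean-variance trend, Mapk3 also without a filter on low values or rescaled to the same total, and Hras also with quantile normalization or a replicate block. Akt1, the kinase that follows PI3-kinase, measured 31.9 ± 4.09 and 34.5 ± 4.21 FPKM and was not called (adjusted p = 0.631).

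Of 28 tested inhibitors of insulin signalling, 7 rose (4 without control 3, knockout 2 or knockout 3) and 1, Grb7, fell (0 without control 1, control 2, knockout 1 or knockout 2), with a median of 0.10. The STAT5-induced inhibitor Cish measured 3.60, 5.49 and 1.17 FPKM in controls against 15.4, 17.6 and 11.9 FPKM in knockouts (log2 fold change 2.15 ± 0.40, limma adjusted p = 0.00449). The kinase Prkcd rose from 4.61 ± 1.34 to 16.3 ± 1.66 FPKM (adjusted p = 5.45e-04). Socs2, at 1.85, 9.82 and 2.47 FPKM in controls against 9.24, 13.2 and 10.3 FPKM in knockouts, was called (adjusted p = 0.0493) although the groups overlapped, and kept its call only without control 2 when a library was left out (log2 fold change 1.03 to 2.1). With all libraries kept, it also lost the call with a pseudocount of 0.1, without a filter on low values, with quantile normalization, without a mean-variance trend, in a robust fit and with library weights.

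Genes that insulin represses through FOXO factors moved in both directions, with 4 of 18 higher (2 without control 3), 3 lower and a median log2 fold change of 0.44. Igfbp1, the binding protein of insulin-like growth factors that is a standard readout of FOXO1 in liver, measured 32.2, 23.7 and 10.4 FPKM in controls against 1132, 2640 and 808 FPKM in knockouts, a change opposite in direction to those of G6pc and Pck1. The cyclin-dependent kinase inhibitor Cdkn1a rose from 18.6 ± 4.20 to 124.9 ± 34.5 FPKM (limma adjusted p = 8.91e-05). Gadd45a and Trib1 were also called higher. The sterol transporter Abcg5 fell from 39.1 ± 10.0 to 10.8 ± 2.22 FPKM (adjusted p = 6.65e-04), as did its partner Abcg8, along with Klf15.

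Of 18 tested genes of lipogenesis and its sterol-regulated control, most of which insulin induces, 10 fell and 1 rose (2 rose without knockout 2), with a median log2 fold change of -0.96. The gene that rose was Insig2, which restrains SREBP processing and whose liver transcript insulin represses, so it is not among the induced genes of that list. Thrsp measured 591.5, 522.2 and 413.9 FPKM in controls against 60.9, 26.0 and 38.0 FPKM in knockouts (log2 fold change -3.67 ± 0.28, limma adjusted p = 6.32e-05). The elongase Elovl5 fell from 186.9 ± 13.6 to 55.9 ± 14.8 FPKM (adjusted p = 2.89e-04) and the desaturase Fads2 from 113 ± 15.9 to 35.0 ± 10.5 FPKM (adjusted p = 8.53e-04). The desaturase Scd1 measured 488.5, 557.5 and 664.4 FPKM in controls against 295.8, 290.3 and 737.4 FPKM in knockouts and was not called (adjusted p = 0.293), but was without knockout 3 (log2 fold change -0.95, adjusted p = 0.00716).

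**Figure D4:**
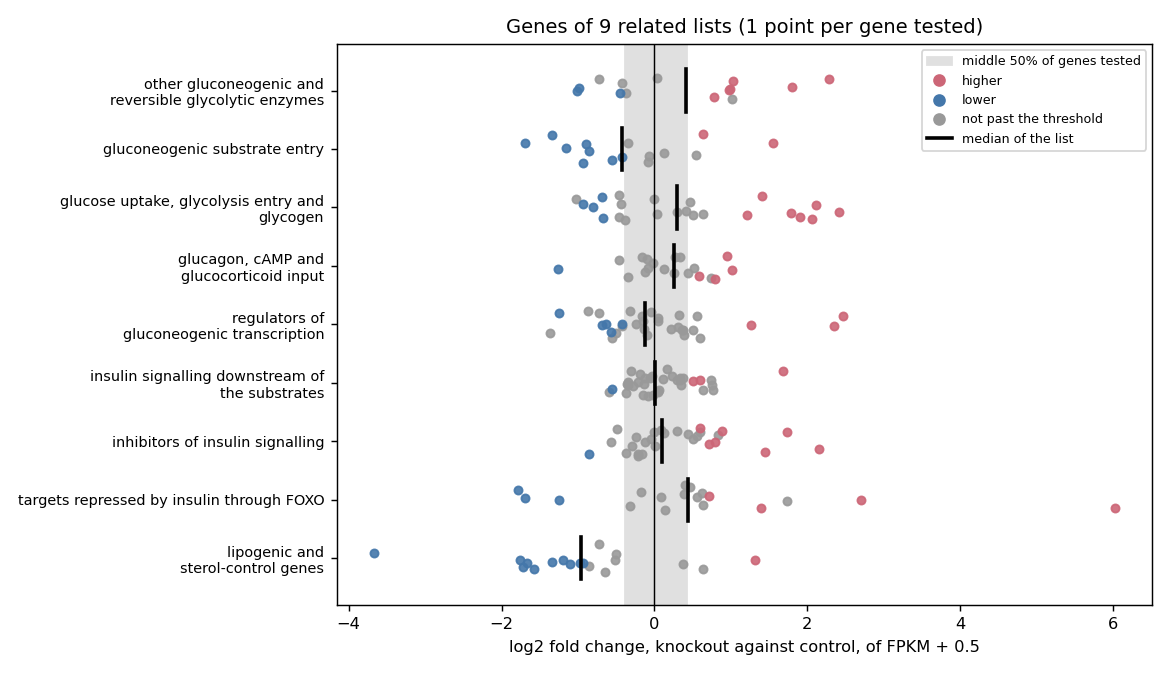
Log2 fold change of FPKM + 0.5 in knockout against control (horizontal axis) of each tested gene in 9 lists, coloured by call (red higher, blue lower, grey not past the threshold), with the median of each list as a black line and a band for the middle 50% of all genes tested (-0.38 to 0.42). Lipogenic genes have the lowest median (-0.96), and the point at 6.03 is Igfbp1.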

How the data were processed

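Mouse liver RNA was sequenced as paired ends from 6 TruSeq libraries on an Illumina HiSeq instrument, per the labels' protocols. Per the submitters' processing notes, Trimmomatic 0.33 and TopHat2 2.1.0 were used together with Cuffnorm 2.2.1, Cuffdiff 2.2.1 and the mm9 build. Which gene annotation was used is not given in these sources. The authors deposited FPKM values, 1 column per library, which were used as they stand. Where FPKM is relative to all mapped fragments, a few very abundant genes can shift all others, and whether that holds for these values was not tested. The deposited values are called normalized, and their totals without Alb ranged from 440763 to 559515 FPKM. Rescaling by median ratio moved the median log2 fold change over all genes tested from -0.0007 to 0.0012. No counts were used, and no counting interval is given.

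The comparison of knockout and control used limma 3.58.1 under R 4.3.3, fitting log2(FPKM + 0.5) by lmFit and moderating with a trended eBayes (two-sided), after removal of Alb and of genes with a mean under 0.5 FPKM. The fit was tested on simulated data. Ratios were tested by exact permutation over libraries. The fit was repeated under 18 other settings (12 on all libraries, 6 leaving 1 out) and 2 more chosen after seeing the data. Members and lists were chosen with earlier results of these data known. Named from each list were up to 3 called genes with the largest change and the 2 most abundant, not all of which are described; names outside this rule were given because a count was 5 or fewer or because they were singled out after their values were seen. Gene positions are from GENCODE and upstream sequences from RefSeq, both on GRCm38 and not on the mm9 build of the authors. Figures were drawn with matplotlib 3.10.9.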

Additional observations from a re-analysis of the deposited data

How the results depend on the processing

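G6pc, Pck1, Foxo1 and Irs2 kept their direction and call under every alternative run that measured them (log2 fold changes of -2.65 to -1.84, -1.27 to -0.79, 0.89 to 1.27 and 2.30 to 3.49). With 1 library left out, Irs1 ranged from -1.07 to -0.83, Pcx from 0.62 to 0.81 and Fbp1, never called, from -0.17 to 0.07. Irs1, Irs2 and Ppargc1a fell out under a filter at a mean of 5 FPKM. Rescaling each library to the same total shifted the median change over all genes from -0.0007 to -0.11 on the log2 scale. The share of calls that were higher went from 52.1% to 39.5% (1356 higher and 2081 lower). In that fit the 9 genes kept their directions and calls, with the shift left in their values (G6pc -2.40, Pck1 -1.16, Irs1 -1.07, Pcx 0.57, Foxo1 0.99, Irs2 2.71). The filter at 5 FPKM left 917 genes higher and a share of 39.7%, from fewer genes tested. Without 1 library, genes called lower numbered 943 (without control 2) to 1497. The replicate numbers do not pair the libraries (correlations of deviations of same-numbered libraries of -0.01, 0 and 0.002, and not each best with its own number); a replicate block gave 1575 genes higher and 1385 lower, and 0 lower among genes downstream of the substrates, and changed no call of the 9. No added alternative changed a call of the 9.

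For the lists, the cause of each change was not tested. Rescaled to the same total, called genes numbered 2 lower for glucagon input, 8 lower for transcriptional regulators, 1 higher downstream of the substrates and 3 lower among inhibitors. With quantile normalization they numbered 5 lower for substrate entry, 2 lower for glucose uptake, 2 lower for glucagon input, 5 higher for regulators, 6 higher downstream, 2 lower among inhibitors and 3 higher among lipogenic genes. With library weights they numbered 5 lower for gluconeogenic and glycolytic enzymes, 2 lower for glucagon input, 3 lower among inhibitors and 2 higher among lipogenic genes. Without a mean-variance trend they numbered 3 lower for regulators and 0 lower downstream. The filter at 5 FPKM gave 4 higher for glucose uptake and 1 higher for regulators. With 1 library left out, the ranges were 1 to 3 higher for substrate entry, 2 to 6 lower for glucose uptake, 2 to 4 higher for glucagon input, 2 to 5 lower for regulators, 1 to 3 higher and 0 to 1 lower downstream, 4 to 6 higher and 0 to 1 lower among inhibitors, 2 to 4 higher for FOXO targets and 1 to 2 higher for lipogenic genes. Among abundant list genes that were not called, the sign turned for Akt1 (-0.01) and Ppp2ca (-0.11) when rescaled to the same total, for Ppp2ca (-0.00) with library weights and for Prkar1a (0.18), Cebpa (0.35) and Ahsg (-0.12) with quantile normalization. The log2 fold change of Pygl, -0.38 and not called although the groups did not overlap, was 0.00 with quantile normalization and was called without knockout 2 (-0.50, limma adjusted p = 0.0411). With a library left out, Prkar1a ranged from -0.10 to 0.03, Ppp2ca from -0.02 to 0.05 and Ahsg from -0.01 to 0.23. Depth is unknown, which limits what can be said of Irs2, Irs1 and Ppargc1a at a few FPKM or less.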

Other observations

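Knockout 2 stood apart from the other knockout libraries for several genes of glucose and insulin metabolism, all picked out after their values were seen and from a single library, so that no test applies. It is also the knockout library whose description lacks the unexplained suffix of the other two, and the part of that difference in these values was not tested. It had the most Foxo1 (33.0 FPKM against 23.2 and 19.5) and the most Igfbp1 (2640 against 1132 and 808 FPKM). Pdk4, the kinase that inhibits pyruvate dehydrogenase and is induced in fasting, measured 20.4 FPKM in knockout 2 against 2.09 and 3.89 FPKM in knockouts 1 and 3, and 1.15, 1.33 and 1.65 FPKM in the controls. Its log2 fold change of 1.73 ± 0.63 was not called (limma adjusted p = 0.0702). Insig2, which holds back sterol-regulated transcription, measured 316 FPKM there against 163 and 176 FPKM.

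Fasn and Srebf1, which insulin induces, were lowest among the knockouts in the same library. Not all genes of the lipogenesis list were lowest there. Pklr (31.2 against 18.0 and 21.8 FPKM) and Acacb (5.34 against 3.04 and 3.57 FPKM) were highest in knockout 2. Fasn measured 12.1 FPKM in knockout 2 against 18.2 and 20.8 FPKM in knockouts 1 and 3, and Srebf1 19.0 FPKM against 34.3 and 30.6 FPKM. The controls measured 51.9, 47.8 and 52.7 FPKM for Fasn and 47.0, 22.9 and 56.0 FPKM for Srebf1, which was not called. Pck1 was also lowest in knockout 2 (446 FPKM), as was Irs2 (6.08 FPKM against 6.29 and 7.49 FPKM), whereas G6pc was lowest in knockout 1 (12.1 FPKM).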
